A study of Mus musculus with 10 samples.

Results

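The troponin genes Tnnc1, Tnnc2, Tnni1, Tnni2, Tnnt1, Tnnt2 and Tnnt3 were examined in mouse C2C12 myoblasts after transfection of a miR-27a-3p mimic or of a scrambled sequence. They were found by the gene name that the scanner files give to each probe that is not a control. This gave 9 probes of 55681 and 7 genes of 34607, with 2 probes each for Tnnt1 and Tnnt3 and 1 for each of the others.

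Troponin is the calcium switch of striated muscle. It sits on the thin filament with tropomyosin and has 3 kinds of subunit: troponin C binds calcium, troponin I holds contraction off when calcium is low, and troponin T ties the complex to tropomyosin. Separate genes encode the fast and the slow forms, and the heart shares its troponin C with slow muscle. Myoblasts hold little of these transcripts while they proliferate and raise them when they differentiate into myotubes, and embryonic skeletal muscle also uses the troponin T gene of the heart.

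The mimic group held 6 samples labelled with miR-27a-3p mimic, and the control group held 4 samples labelled with a scrambled sequence. Both groups were C2C12 cells, a line from mouse skeletal muscle, and both received 150 nM of their oligonucleotide with a Lipofectamine reagent in high-glucose DMEM with 10% fetal bovine serum. RNA was taken 72 h after transfection, at an estimated efficiency of 60%, so each sample also holds RNA of cells that were not transfected. No untransfected cells were analysed here. The 10 scanner files came from 5 array positions on 1 slide, each scanned 2 times, and the values of both scans were averaged, which left 3 mimic arrays and 2 scrambled arrays. The labels call every replicate an independent transfection, which the shared positions do not bear out, so the p-values reflect how far 5 arrays spread, some of it possibly technical.

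A mimic is a synthetic RNA duplex that supplies the mature microRNA. A microRNA binds messenger RNAs mainly through its seed, bases 2 to 8 from its 5′ end. The mature sequences of miR-27a-3p (GRCm38.p6, chr8:84208727-84208747, plus strand) and of its relative miR-27b-3p (chr13:63300760-63300780, plus strand), from RefSeq, show the seed in capitals. They are set side by side because both carry the same seed and differ at 1 position outside it.
miR-27a-3p: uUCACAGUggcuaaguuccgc
miR-27b-3p: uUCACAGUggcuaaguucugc
The complement of the whole seed, ACTGTGA, was in 0 of the 9 troponin probes, against 0.817% of all probes. The shorter match CTGTGA, the complement of bases 2 to 7, was in the probes of Tnnc2 and Tnni1, against 3.13% of all probes. The 30 probe bases around each match, with the match in capitals, were as follows.
Tnnc2: ctcctttgggctCTGTGActggaaggaata
Tnni1: ccaacctcaagtCTGTGAagaaagaagaca
A probe covers 60 bases of a transcript, so these counts describe the letters of the probes and say nothing of the rest of the transcripts.

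Levels are in log2 units above or below the 75th percentile of the probes that every file detected, and a difference is mimic minus scrambled on that log2 scale. The share of spots well above background was 27.04% to 35.3% per file, and no spot other than controls was saturated. All 9 troponin probes were well above background in all 10 files. Of the 7 genes, 6 had an unmarked spot on every array and were tested in a limma fit over 13138 genes with Benjamini-Hochberg adjustment and a threshold of 0.05; Tnni2 had a marked spot on 1 array and is given apart. Of these 6, 5 fell after the mimic (Tnnc1, Tnnc2, Tnni1, Tnnt1 and Tnnt2) and Tnnt3 did not pass. In the same fit 2.34% of all genes tested were called lower. The median difference of the 6 was -1.47, against -0.05 over all genes tested. In all 6, every mimic array was below every scrambled array, which held for 25.8% of all genes. In bulk RNA, fewer cells that express a troponin and less troponin RNA per cell cannot be told apart.

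**Figure D1:**
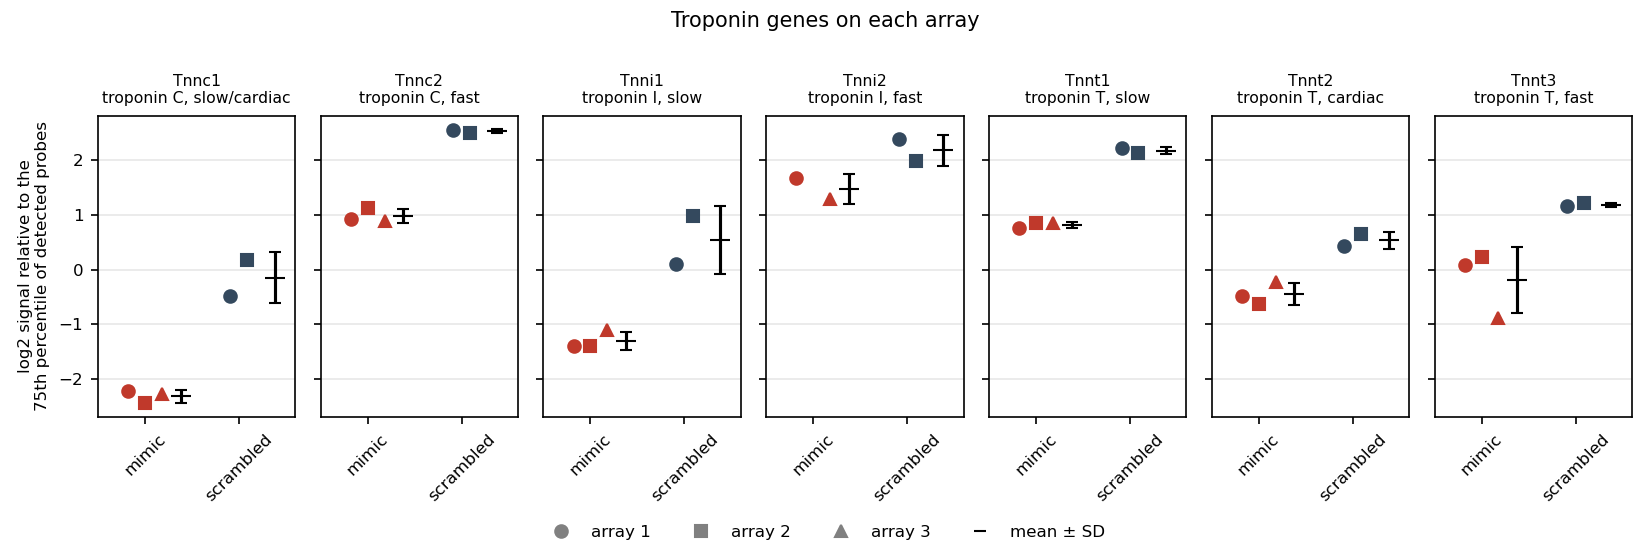
Log2 level of each troponin gene against the 75th percentile of detected probes (vertical axis) on the 3 mimic arrays (red, left) and the 2 scrambled arrays (dark, right), with the mean and SD in black. The groups do not overlap in any panel, mimic array 3 lies apart from the other mimic arrays for Tnnt3 at -0.89, and Tnni2 has no point for mimic array 2.

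Tnnc1 encodes the calcium-binding subunit of slow skeletal and cardiac muscle, and its probe lies on chromosome 14 (mm9, chr14:32023360-32023776). It spans 417 bases of the genome with 60 probe bases, so it crosses at least 1 intron. Its level was -2.22, -2.45 and -2.28 on mimic arrays 1, 2 and 3, against -0.48 and 0.18 on scrambled arrays 1 and 2. The mimic arrays lay close together, and the scrambled arrays stood 0.66 apart. Tnnc1 fell by 2.17 ± 0.23 on the log2 scale (SE, limma adjusted p = 0.0095), a level 4.49-fold lower than with the scrambled sequence. Of the 13138 genes, 0.312% had a difference as low or lower.

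Tnnc2 encodes the fast skeletal calcium-binding subunit (mm9, chr2:164602661-164602720, minus strand). It was at 0.93, 1.13 and 0.88 on the mimic arrays, against 2.56 and 2.51 on the scrambled arrays. The spread within each group was far smaller than the distance between the groups. Tnnc2 fell by 1.55 ± 0.15 (SE, limma adjusted p = 0.0084) and was 2.93-fold lower.

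The sequences before the starts of both troponin C genes are shown because both genes fell, and because the E-box CANNTG is the motif that myogenic factors such as Myog bind. They are the 250 bases before the start of each gene in RefSeq on GRCm38.p6, Tnnc1 at chr14:31208062-31208311 (plus strand) and Tnnc2 at chr2:164779735-164779984 (minus strand), with E-boxes in capitals.
Tnnc1: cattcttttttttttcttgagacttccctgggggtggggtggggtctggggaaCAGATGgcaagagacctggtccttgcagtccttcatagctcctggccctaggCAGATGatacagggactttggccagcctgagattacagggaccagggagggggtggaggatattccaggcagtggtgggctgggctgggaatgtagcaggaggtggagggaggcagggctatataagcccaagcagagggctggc
Tnnc2: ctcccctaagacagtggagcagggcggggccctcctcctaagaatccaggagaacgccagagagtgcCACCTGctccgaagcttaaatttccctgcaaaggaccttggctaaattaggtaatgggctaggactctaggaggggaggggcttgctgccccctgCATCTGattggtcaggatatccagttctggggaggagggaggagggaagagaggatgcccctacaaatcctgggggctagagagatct
Both windows held 2 E-boxes, and 31.8% of 32841 such windows held as many. RefSeq windows were matched for 5 of the 7 genes, 7 windows in all, and each of the 7 held at least 1 E-box, against 66.2% of all windows. The windows with most E-boxes were the first of Tnni1 and the first of Tnnt2, with 4 each, a number that 3.84% of all windows reached. The MCAT motif CATTCC was in the windows of Tnnc1 and Tnnt2 (12.6% of all windows), TATAAA in that of Tnnt1 (12.4%), and the MEF2 core (CTA and TAG with 4 bases of any kind between them) in no troponin window (3.2% of all windows). Each motif was searched on both strands, and a match describes letters, not a bound site.

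Tnni1 encodes slow skeletal troponin I, the inhibitory subunit (mm9, chr1:137705328-137706203, a probe that spans 876 bases of the genome). It was at -1.399, -1.399 and -1.114 on the mimic arrays, against 0.10 and 0.98 on the scrambled arrays. The scrambled arrays differed by 0.88 and were still both above the highest mimic array. Tnni1 fell by 1.85 ± 0.28 (SE, limma adjusted p = 0.024), which is 3.595-fold lower.

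Tnni2 encodes fast skeletal troponin I (mm9, chr7:149630251-149630310). It was at 1.67 and 1.28 on mimic arrays 1 and 3, against 2.39 and 1.98 on the scrambled arrays. On mimic array 2 its spot was marked as non-uniform in both scans, with processed signals of 81062.9 and 73478, against 7258.74 to 13741.5 in the other 8 files, and that array gives no value. Both remaining mimic arrays were below both scrambled arrays, with a difference of -0.71 ± 0.23 over 4 arrays (SE). Fitted on those arrays alone, in a limma fit added after the data were seen, Tnni2 did not pass the adjusted threshold (adjusted p = 0.154). The exact permutation test over the 4 arrays gave p = 0.333, the smallest it can give.

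Tnnt1 encodes slow skeletal troponin T, the subunit that binds tropomyosin, and has 2 probes that do not overlap (mm9, chr7:4456265-4456324 and chr7:4456172-4456231, minus strand). The brighter probe was at 0.76, 0.86 and 0.85 on the mimic arrays, against 2.23 and 2.13 on the scrambled arrays. The dimmer probe was at -2.58, -2.76 and -2.54 on the mimic arrays, against -1.08 and -1.16 on the scrambled arrays. Both probes put the groups apart by a like amount. Tnnt1 fell by 1.36 ± 0.13 by the brighter probe (SE, limma adjusted p = 0.0090), a 2.56-fold lower level. In a fit of every probe on its own the dimmer probe fell by 1.51 ± 0.15 (SE, limma adjusted p = 0.010).

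Tnnt2 encodes cardiac troponin T, which developing skeletal muscle also expresses (mm9, chr1:137747976-137748288, a probe that spans 313 bases of the genome). Its level was -0.48, -0.62 and -0.23 on the mimic arrays, against 0.43 and 0.65 on the scrambled arrays. The gap between the lowest scrambled and the highest mimic array was smaller than for the other called troponins. Tnnt2 fell by 0.98 ± 0.18 (SE, limma adjusted p = 0.038) and was 1.98-fold lower. Its call was lost in 7 of 20 alternative settings, more often than that of any other troponin gene in those settings.

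Tnnt3 encodes fast skeletal troponin T. Its brighter probe (mm9, chr7:149698500-149700262) was at 0.09, 0.23 and -0.89 on the mimic arrays, against 1.16 and 1.21 on the scrambled arrays. Mimic array 3 was 1.05 below the mean of the other mimic arrays, a gap that 1.77% of genes exceeded in size. The difference of -1.38 ± 0.35 (SE) did not pass (limma adjusted p = 0.084), and without mimic array 3 it was -1.03 with an adjusted p of 0.081. The dimmer probe (mm9, chr7:149698467-149698526) was at -0.56, -0.34 and -1.01 on the mimic arrays, against 0.71 and 1.25 on the scrambled arrays. Here mimic array 3 was again the lowest, and the groups again did not overlap. By that probe Tnnt3 fell by 1.61 ± 0.27 (SE, limma adjusted p = 0.033 in the fit of every probe), so whether Tnnt3 passes depends on the probe.

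The Tnnt3 probes are not independent of each other, since they share 27 bases, in capitals in the first lines of the 3 sequences that follow. They are shown with the probe of Tnnt2, the troponin T probe most like them, in which capitals mark the 29 bases of 43 aligned ones that match the dimmer Tnnt3 probe.
Tnnt3, brighter: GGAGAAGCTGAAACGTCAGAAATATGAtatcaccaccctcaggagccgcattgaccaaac
Tnnt3, dimmer: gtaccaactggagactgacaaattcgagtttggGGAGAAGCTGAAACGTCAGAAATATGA
Tnnt2: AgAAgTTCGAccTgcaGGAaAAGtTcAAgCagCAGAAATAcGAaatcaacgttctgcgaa
Over the 34 pairs of probes from different troponin genes, the longest exact run in common was 8 bases. The brighter Tnnt3 probe spans 1763 bases of the genome and so joins exons that are spliced together.

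**Figure D2:**
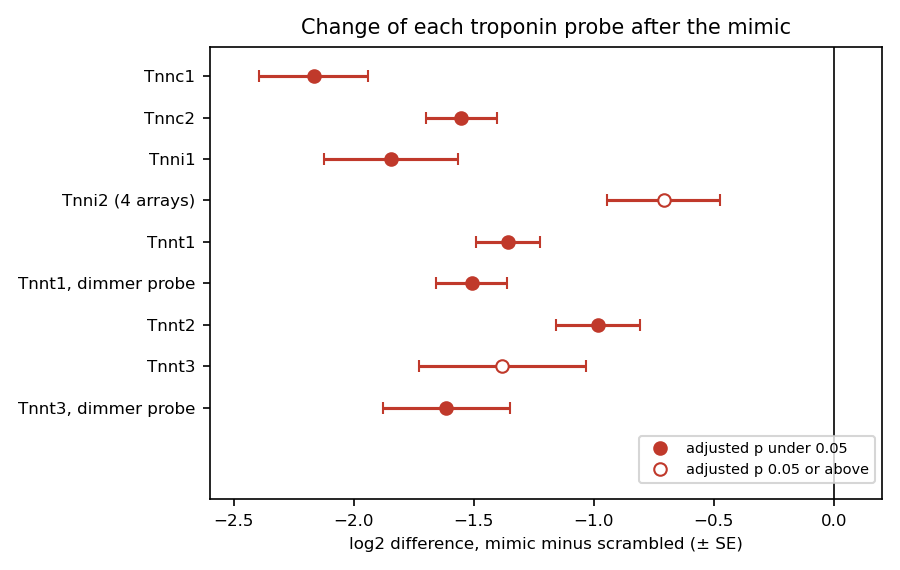
Difference in log2 level, mimic minus scrambled, with its SE for each troponin probe (horizontal axis), filled where the limma adjusted p is under 0.05. All 9 lie below 0, between -2.17 for Tnnc1 and -0.71 for Tnni2, and the brighter and dimmer Tnnt3 probes fall on either side of the threshold.

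Whether the fast and slow forms of a subunit changed unequally was tested with the ratio of the 2 genes within each array, which cancels the brightness of the probes. In all, 5 pairs were compared by a two-sided exact permutation test over arrays with Benjamini-Hochberg adjustment. With 3 against 2 arrays the smallest p is 0.1, so no pair could pass, and the values are given as a description.

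The log2 ratio of fast Tnnc2 over slow Tnnc1 was 3.15, 3.58 and 3.17 on the mimic arrays, against 3.04 and 2.33 on the scrambled arrays. Each mimic array was above each scrambled array, by little for scrambled array 1. The ratio was 0.62 higher with the mimic (exact permutation p = 0.1, adjusted p = 0.5), and leaving out an array moved this between 0.26 and 0.97. The ratio of fast Tnni2 over slow Tnni1 was 3.07 and 2.40 on mimic arrays 1 and 3, against 2.28 and 1.004 on the scrambled arrays. It was 1.09 higher with the mimic over these 4 arrays (exact permutation p = 0.333, the smallest possible, adjusted p = 0.556) and ranged from 0.45 to 1.73 with an array left out. In the deposited value table, which keeps the marked spot of mimic array 2, it was 2.37. In both pairs the scrambled arrays stood well apart from each other, and scrambled array 2, the one with the higher Tnnc1 and Tnni1, gave the lowest ratio.

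For troponin T, both ratios with Tnnt3 overlapped between the groups. Fast Tnnt3 over slow Tnnt1 was at -0.67, -0.63 and -1.74 on the mimic arrays, against -1.06 and -0.92 on the scrambled arrays. The change of -0.02 (exact permutation p = 1, adjusted p = 1) became 0.34 without mimic array 3. Fast Tnnt3 over cardiac Tnnt2 was 0.57, 0.85 and -0.66 on the mimic arrays, against 0.74 and 0.56 on the scrambled arrays. Its change of -0.40 (exact permutation p = 0.9, adjusted p = 1) likewise turned to 0.061 without mimic array 3. Slow Tnnt1 over cardiac Tnnt2 was 1.24, 1.48 and 1.08 on the mimic arrays, against 1.80 and 1.48 on the scrambled arrays. Every mimic array was below every scrambled array, mimic array 2 only just, and the change was -0.37 (exact permutation p = 0.2, adjusted p = 0.5).

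**Figure D3:**
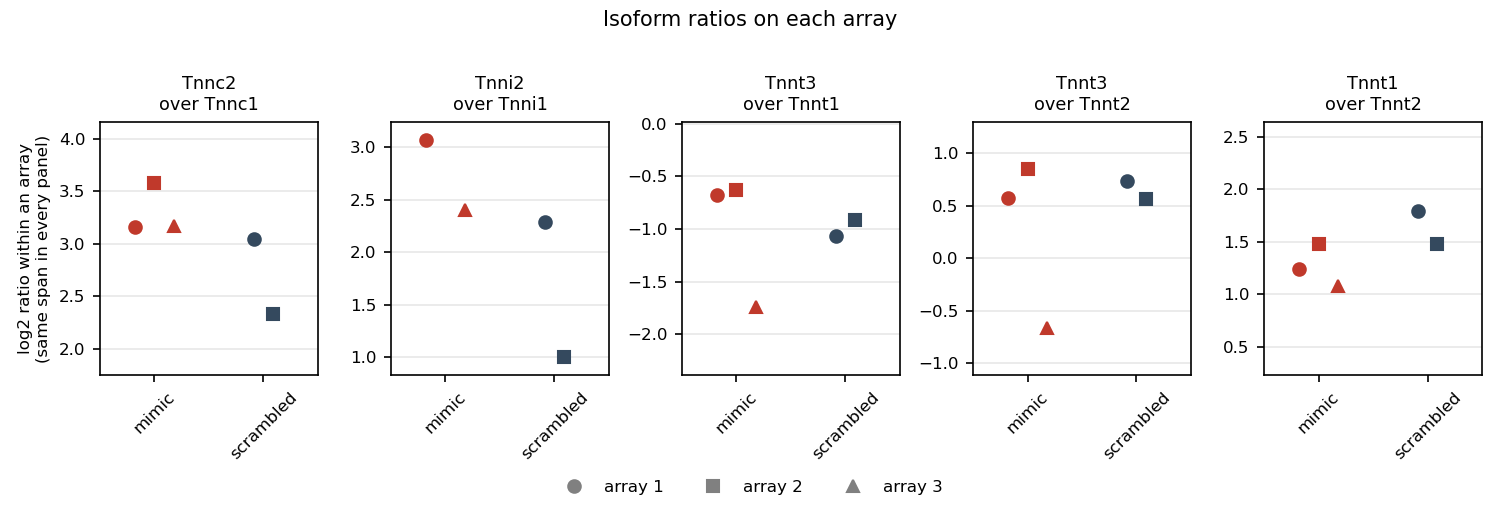
Log2 ratio of 2 troponin genes within an array (vertical axis, the same span in each panel) on the mimic arrays (red, left) and the scrambled arrays (dark, right). The mimic arrays are higher for Tnnc2 over Tnnc1 and Tnni2 over Tnni1, and mimic array 3 is far below the others for both ratios with Tnnt3.

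Arrays of 1 group were not alike for all members. Between scrambled arrays 2 and 1, Tnni1 differed by 0.88, Tnnc1 by 0.66 and Tnnt2 by 0.22, against -0.05 for Tnnc2, -0.09 for Tnnt1 and 0.05 for Tnnt3. Over all genes the log2 differences between these arrays had an SD of 0.565, against 0.323 to 0.442 between mimic arrays. Mimic array 3 stood apart for Tnnt3 only: the other tested members were between -0.15 and 0.33 from the mean of mimic arrays 1 and 2. Other muscle genes, named here after their values were seen, were also low on that array. Against the mean of mimic arrays 1 and 2, Pvalb, the calcium buffer parvalbumin, was at -4.67, Myh4, a fast myosin heavy chain, at -4.25 and Atp2a1, the fast calcium pump, at -2.16. Genes of the other lists were low as well, with Mybpc1 at -3.30, Myh8 at -2.92, Klhl40 at -2.22 and Klhl41 at -1.19, while the fast fibre genes Myl1 and Actn3 were at -0.18 and -0.36. Myh4, Mybpc1, Myh8, Klhl40 and Klhl41 were above background in 4 of 6 mimic files each and Pvalb in 5, so the sizes of their gaps are uncertain. The part of these differences between arrays in the Tnnt3 value was not tested.

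**Figure D4:**
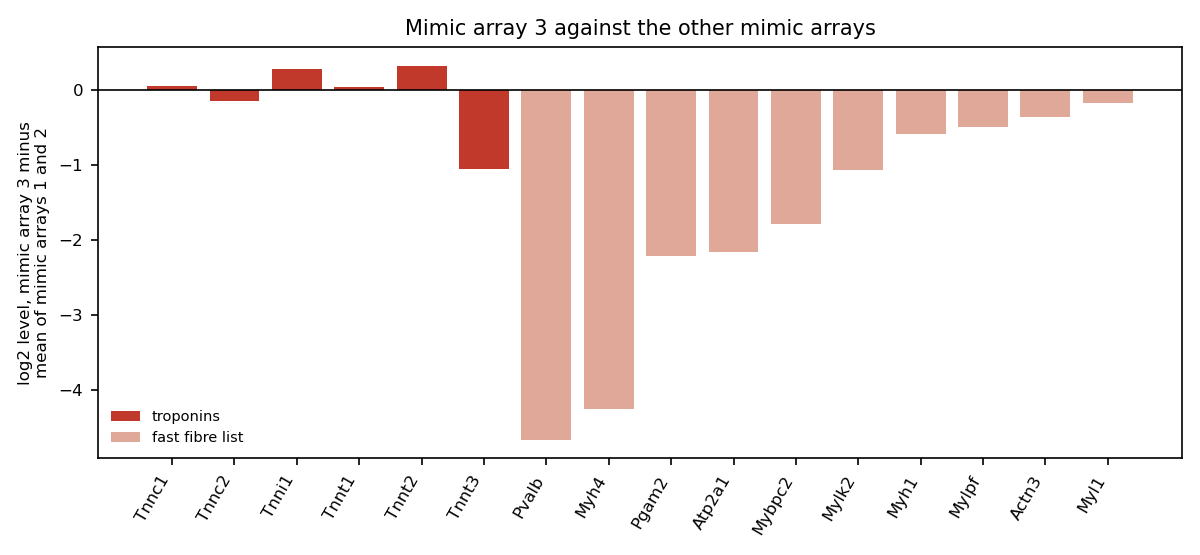
Log2 level on mimic array 3 minus the mean of mimic arrays 1 and 2 (vertical axis) for the 6 tested troponin genes (dark) and the 10 tested genes of the fast fibre list (light). Tnnt3 is the troponin that stands apart at -1.05, and the fast fibre genes reach down to -4.67 for Pvalb.

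Some partners of troponin on the thin filament fell as well. Of 16 genes of the thin filament list, 14 were tested, 5 fell and 0 rose (0 also at an unadjusted p under 0.05 in limma), with a median difference of -0.89. Over all genes tested, 2.34% were called lower. The other 9 thin filament genes did not pass, and in 4 of them (Nrap, Klhl40, Tmod4 and Tpm3) the groups overlapped. In 10 of the 14 every mimic array was below every scrambled array, against 25.8% of all genes. Lmod3, a leiomodin that helps actin filaments form, fell by 1.70 ± 0.17 (SE, limma adjusted p = 0.0090). The cardiac alpha-actin gene Actc1, also active in embryonic skeletal muscle, fell by 1.52 ± 0.18 (adjusted p = 0.012), and Tmod1, which caps the pointed end of the filament, fell by 2.20 ± 0.30 (adjusted p = 0.018; 2 of its 6 mimic files were above background). Acta1 and Tpm2 were the other 2 that fell. Tnni3, the cardiac troponin I gene and the neighbour of Tnnt1 on chromosome 7 with 0 genes between them in RefSeq, was above background in 0 files.

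Genes of fast and of slow fibres were both among those that fell, in a fit that called 2.34% of all genes tested lower. Of the 12 fast fibre genes 10 were tested, 2 fell and 0 rose (0 also at an unadjusted p under 0.05 in limma), with a median of -1.402, which was -0.29 without mimic array 3. Without scrambled array 1 the list had 1 gene called higher. The fast regulatory light chain Mylpf fell by 1.88 ± 0.23 (limma adjusted p = 0.013; above background in 4 mimic files of 6) and the Z-disc actinin Actn3 by 1.78 ± 0.22 (adjusted p = 0.014), while the fast myosin Myh1 was at -1.41 ± 0.29 (adjusted p = 0.055). Of 12 slow fibre and heart genes 8 were tested, 5 fell and 0 rose (0 also at an unadjusted p under 0.05 in limma), with a median of -1.48 (-0.97 with normexp background correction). Of those 5, Myoz2 was above background in 0 of 6 mimic files and Csrp3 in 1 of 6, against 4 of 4 scrambled files each, so both passed the filter on dim probes through the scrambled group. Without scrambled array 1 the list had 1 gene called higher. Casq2, the cardiac and slow calsequestrin, fell by 2.08 ± 0.22 (limma adjusted p = 0.010), the light chain Myl6b fell by 1.505 ± 0.17 (adjusted p = 0.011) and the calcium pump Atp2a2 by 1.23 ± 0.15 (adjusted p = 0.015). Myh7 went the other way, at 0.55 ± 0.23, and was not called (limma adjusted p = 0.207), and Tpm3 was at 0.12. In 3 settings 1 slow gene was higher at an unadjusted p under 0.05 in limma. These were normexp background correction, quantile normalisation and the 75th percentile over all probes. Of 6 developmental genes, all tested, 3 fell and 0 rose (0 also at an unadjusted p under 0.05 in limma), with a median of -1.46 (-0.98 without mimic array 3): the embryonic acetylcholine receptor subunit Chrng fell by 2.80 ± 0.34 (limma adjusted p = 0.013, above background in 4 mimic files of 6), Actc1 as above, and the embryonic myosin Myh3 fell by 1.402 ± 0.22 (adjusted p = 0.027). Myl4 of this list went the other way, at 0.31 ± 0.15, and was not called (limma adjusted p = 0.254).

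Regulators of troponin genes were called in both directions. Of 24 listed, 17 were tested, 2 fell and 2 rose, with a median of -0.51. Of all genes tested, 2.34% were called lower and 2.80% higher. At an unadjusted p under 0.05 in limma, 9 of the 17 were lower and 3 higher, and 14.1% of all genes were lower. The share of all genes that were higher at that threshold was not computed. Myog, the factor that starts terminal differentiation, was at 0.32, 0.46 and 0.50 on the mimic arrays, against 2.22 and 2.83 on the scrambled arrays. Its groups were far apart, and it fell by 2.10 ± 0.21 (SE, limma adjusted p = 0.0092). Vgll2, a cofactor of TEAD proteins, rose by 0.79 ± 0.14 (limma adjusted p = 0.035) and Myf6, a myogenic factor of later muscle, rose by 0.70 ± 0.14 (adjusted p = 0.049). Both rises were near the threshold: 1 regulator was called higher in the deposited value table, with normexp, in scan 1 alone and after quantile normalisation, and 0 in scan 2 alone (limma, 4 at an unadjusted p under 0.05) and without mimic array 1, 2 or 3 (2 in each).

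**Figure D5:**
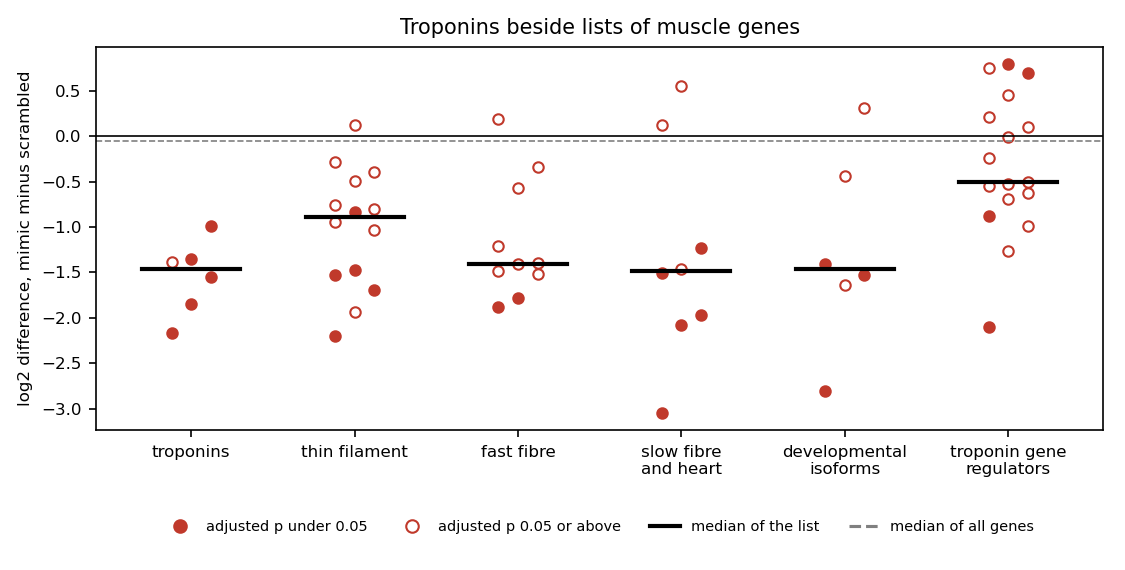
Difference in log2 level, mimic minus scrambled (vertical axis), of each tested gene of the troponins and of 5 lists, filled where the limma adjusted p is under 0.05, with the list's median as a bar and the median of all genes (-0.05) dashed. The medians of the troponins (-1.47) and of the fast, slow and developmental lists (-1.402, -1.48 and -1.46), and of the regulators (-0.51), are those over all 5 arrays; without mimic array 3 they are -1.44, -0.29, -1.397, -0.98 and -0.47 in the same order.

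The 5 genes whose profile over the 5 arrays was closest to the mean profile of the 6 tested troponins, by root mean square distance among 9694 genes with a plain symbol, were Myl6b (0.048), Fmo1 (0.071), Asph (0.084), Zfp568 (0.086) and Zbtb18 (0.095). They were chosen for likeness to a profile that is lower on the mimic arrays, so their own fall follows from the choice. Their differences were between -1.505 and -1.415, and limma called all 5 lower. Fmo1 was above background in 5 of 6 mimic files. The troponins themselves were at 0.123 (Tnnc2), 0.159 (Tnnt1), 0.274 (Tnni1), 0.318 (Tnnt2), 0.339 (Tnnc1) and 0.372 (Tnnt3) from that mean.

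Troponin I and troponin T genes lie in pairs in the genome, while the troponin C genes Tnnc1 and Tnnc2 are on chromosomes 14 and 2. In the order of the RefSeq table, Tnni1 and Tnnt2 on chromosome 1 have 1 gene between them, Lad1, and Tnni2 and Tnnt3 on chromosome 7 have 2, Lsp1 and Prr33. Of the first pair both fell, by 1.85 and 0.98, and of the second neither passed by the probes used for the genes.

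Markers of other cells were set beside these results. All 7 skeletal myoblast markers were above background in at least 1 file, with a summed linear level, relative to the 75th percentile, of 18.5 to 19.9 on the mimic arrays and 22.1 to 28.9 on the scrambled arrays. Of these, 6 were tested and 0 were called. Myod1 (-1.26), Des (-0.87), Cdh15 (-0.70) and Itga7 (-0.44) were lower with the mimic, and Ncam1 (0.57) and Vcam1 (0.24) were higher. Myf5 was above background in 1 file only. Of the 8 cardiac markers 2 were above background in any file, Gata4 in all 10 and Nppb in 2 (summed level 0.151 to 0.173 on the mimic arrays, against 0.209 to 0.330 on the scrambled arrays), and Nkx2-5, Nppa, Myl7, Tnni3, Hand2 and Ryr2 were in none. Gata4 was lower on every mimic array, at -0.90 ± 0.23 (SE), and was not called (limma adjusted p = 0.088). Smooth muscle markers were above background for 3 of 5, without Myh11 and Cnn1 (8.18 to 9.15 on the mimic arrays, against 11.6 to 14.0 on the scrambled arrays). Tagln was called and fell by 1.01 ± 0.15 (SE, limma adjusted p = 0.021). Acta2, at -0.71, and Smtn, at 0.08, were not called. All 5 fibroblast markers were above background (20.4 to 21.8 on the mimic arrays, against 15.0 to 18.6 on the scrambled arrays). Of these 5, Col1a1 (0.55), Dcn (0.48), Lum (0.19) and Col3a1 (0.16) were higher with the mimic and were not called. Pdgfra, the 1 that was called, went the other way and fell by 0.96 ± 0.16 (limma adjusted p = 0.030). It was near the floor, with 1 of its 6 mimic files above background. For the remaining cell types, 0 of 4 adipocyte markers and 1 of 4 osteoblast markers were above background. Whether shifts of these markers have a part in the troponin results was not tested.

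The troponin calls rest on few arrays. Without mimic array 1, 0 of 6 passed in limma (adjusted p = 0.060 to 0.192, all 6 lower at an unadjusted p under 0.05, which with all arrays held for 14.1% of all genes). Leaving out mimic array 2 left 1 call among 7 tested genes, and leaving out mimic array 3 left 3 of 6. Of all genes tested, 0.129% were called lower without mimic array 1, 0.274% without mimic array 2 and 0.494% without mimic array 3. Without scrambled array 1 or 2 only 1 scrambled array remained, and the median difference of the 6 was -1.465 and -1.406. All 6 differences stayed negative whichever array was left out.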

How the data were processed

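Gene expression was measured on 1-colour (Cy3) Agilent arrays. The deposited scanner files hold spot intensity from which, per the file headers, Agilent Feature Extraction 12.0.0.7 had subtracted background and spatial trend, with probe positions on mm9; per the submitters' processing notes the version was 10.7.3.1. A table of values that the authors also deposited served as an alternative. It held linear intensity that the values show to be ordered as the processed signal (Spearman correlation of at least 0.9987). Its scale was linear and uncentred, its direction that of the signal, and the rule for its empty values is unknown. Its column medians were 192 to 294 for mimic and 203 to 245 for scrambled files.

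Files of 1 array position shared 21 to 75 non-uniform spots, against 0 for other pairs, so mimic replicates 1 and 4, 2 and 5, and 3 and 6 became mimic arrays 1, 2 and 3, and scrambled replicates 1 and 3, and 2 and 4 became scrambled arrays 1 and 2. Control and marked spots (157 to 270 per file) were left out, log2 signals were set against the 75th percentile of 13029 probes detected above background in every file, and files of a position were averaged. Probes well above background in at least 4 files were kept (16786), and the brightest probe represented a gene (13188). Of these, 50 had no value on an array and 13138 were tested with limma 3.58.1 under R 4.3.3 through lmFit and eBayes, on 3 residual degrees of freedom and 2.93 from the prior. Over all genes 308 were lower and 368 higher. Of the probes, 28026 were named by transcript accession in RefSeq (GRCm38.p6), 3418 by symbol, 295 by an older symbol and 23942 as in the file. The number of arrays limits the precision.

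The members and lists were chosen with earlier results of these data known. Genes named are all members with every probe, the 3 smallest limma p of each list, the called regulators (1 item is not reported here) and the 5 nearest profiles. Replicate numbers shared by the groups were not taken as pairs in the main fit. Alternatives varied background correction, scaling, filter, probe choice, scans, blocks and arrays left out.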

Additional observations from a re-analysis of the deposited data

How the results depend on the processing

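All 6 tested troponin differences kept their sign in all 20 alternatives. The number of troponins called, 5, was 0 with no filter on dim probes (limma, 34474 genes tested, all 6 at an unadjusted p under 0.05). With a mimic array left out it was 0 to 3. It was 4 to 6 in the other settings with every array. Of these, the fit of the 10 files as separate arrays called 6 troponins and 19.5% of all genes lower, against 2.34% in the main fit. The 5 called members lost their call in 2 (Tnnc2), 3 (Tnnc1), 3 (Tnnt1), 4 (Tnni1) and 7 (Tnnt2) alternatives, and Tnnt3 gained it in 5. Tnni2 was reversed to 0.55 (adjusted p = 0.772) in the deposited value table, which keeps the marked spot of mimic array 2. Genes called, 676, were 17 with no filter, 4512 with the 10 files as separate arrays, 1459 with the scan as a block and position as a random block, and 47 to 4352 with an array left out.

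With the replicate block, 1950 genes and 6 troponins were called, with 8 thin filament genes, 8 regulators and a change of the ratio of Tnnt3 over Tnnt1 of 0.10. The deviations of same-numbered samples correlated at 0.38, -0.04, -0.35 and -0.10. These values compare repeated scans of few arrays and cannot decide whether transfections were paired. With no filter, the counts of the 5 lists were all 0 in limma, in a fit that called 0.0174% of all genes tested lower. At an unadjusted p under 0.05 in limma, 9 thin filament, 3 fast, 5 slow and 3 developmental genes were lower and 0 higher. Of the regulators, 6 were lower and 2 higher. The share of all genes at that unadjusted threshold was computed in the main fit only, for lower genes. With the 10 files separate the counts called were 10 (thin filament), 5 (developmental) and 12 (regulators), and with scan and position as blocks 8 (thin filament) and 7 (regulators). Of all genes tested, these fits called 19.5% and 5.77% lower. Keeping probes above background in all files left 3 slow genes called. An array left out gave 0 to 8 thin filament, 0 to 3 fast, 0 to 6 slow, 0 to 4 developmental and 0 to 11 regulator genes, in both directions together; without scrambled array 1, 1 fast, 1 slow and 4 regulator genes of these were higher. The counts of 0 came without mimic array 1 or 2. At an unadjusted p under 0.05 in limma, 10 and 8 thin filament and 3 and 5 fast genes were lower there. So were 5 and 5 slow and 3 and 4 developmental genes, and 0 genes of these lists were higher. Of the regulators, 4 and 6 were lower and 2 and 2 higher.

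Leaving out an array moved the change of Tnnt3 over Tnnt1 between -0.22 and 0.34 (0.05 without scrambled array 2), that of Tnnt3 over Tnnt2 between -0.70 and 0.061, and that of Tnnt1 over Tnnt2 between -0.53 and -0.21. Taking the 75th percentile over all probes shifted the median of all genes to 0.11, against -0.05, and put 31.8% of calls lower, against 45.6%. In the other settings with every array the share was 35.3% (no filter, 17 calls) to 56.3% (10 files separate). The cause of these changes was not tested. Some settings also had fewer samples or more genes, and the part of this was not tested either. The number of arrays limits what can be called.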
